A study of Mus musculus with 18 samples.

Results

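The 10 genes described here encode carriers that take peptides and amino acids into and out of small intestinal epithelial cells: *Slc15a1*, *Slc6a19*, *Slc6a20a*, *Slc1a1*, *Slc7a9*, *Slc3a1*, *Slc7a7*, *Slc7a8*, *Slc3a2* and *Slc7a5*. They were picked by name, by a rule with no threshold on a measured value, from tables of 17759 genes for crypts, 17423 for day 1 and 17612 for day 3. Earlier results of these data were known when they were chosen. All 10 were listed in each table and passed the filter on low values. RNA was sequenced in 18 bulk libraries from 3 WT (*Mtgr1*+/+) mice and 3 *Mtgr1*-/- mice, which by their label lack the transcriptional co-repressor MTGR1 in all tissues. The mice were male and female littermates aged 8 to 12 weeks. Each mouse gave 1 library of freshly isolated duodenal crypts (day 0) and 1 each of enteroids, the organoids that crypts form in Matrigel with EGF, Noggin and R-spondin, at day 1 (24 h after plating) and day 3 (72 h). Between 22035316 and 29661084 reads per library lay on listed genes, with a median of 26258539.

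The targeted gene, listed as *Cbfa2t2*, did not mark the genotype. Its normalized counts were 523 to 614 in the WT crypt libraries and 466 to 697 in those labelled *Mtgr1*-/-. At day 1 all libraries labelled *Mtgr1*-/- were above WT, at 789 to 1160.3 against 710.2 to 788 (log2 fold change 0.37), and at day 3 the groups overlapped, with no adjusted p below 0.05 at any time point (limma, adjusted p = 0.917, 0.0557 and 0.686 for crypts, day 1 and day 3). Genotypes are therefore given as the labels of the libraries. Mitochondrial transcripts took 5.67% to 6.99% of reads in most libraries, and 13.4% and 11.7% in the crypt libraries of WT mouse 3 and *Mtgr1*-/- mouse 3. Without this pair, 0 of the 10 carriers passed the test in crypts (limma), as with it, and their median log2 fold change there was 0.31 in place of 0.57. The label duodenum was read against 3 proximal small intestine genes, which summed to 289.9 to 509 CPM (counts scaled to a common total over listed genes), and 3 distal ones, which summed to 8.34 to 26.5.

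Dietary protein reaches the enterocyte, the absorptive cell of the villus, as short peptides and free amino acids. Carriers on the apical brush border take these in, driven by proton or sodium gradients or by exchange, and exchangers on the basolateral side pass amino acids on to the blood. Several of the exchangers are pairs, in which a light chain of the SLC7 family does the transport and a heavy chain of the SLC3 family brings it to the membrane. Enterocytes gain most of these carriers as they leave the crypt, whereas *Slc7a5*, which brings in leucine and other large neutral amino acids, is known for its use by dividing cells.

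The levels of the carriers diverged between the genotypes in culture, in 2 directions. At day 1, 8 of the 10 genes were higher and 2 lower in the libraries labelled *Mtgr1*-/- (adjusted p below 0.05, limma on log2(normalized count + 1), Benjamini-Hochberg over 12587 genes), where 58.9% of all tested genes passed, 30% as higher and 28.9% as lower. The median log2 fold change of the 10 was 1.73, beside -0.0080 for all genes tested. At day 3, 8 were higher and 1 lower (background 59%, with 29.9% higher and 29.1% lower), with a median of 1.57 beside 0.0026. In crypts, 0 of 10 passed (limma, background 4.73%, with 1.58% higher and 3.15% lower). An unadjusted p below 0.05 was found for 6, a cut for which no share over all genes was taken. Of the 10, edgeR called 0, beside 182 higher and 377 lower of all 12980 genes. DESeq2 called 4 as higher, beside 586 higher and 793 lower of all genes. The median of the 10 in crypts was 0.57 beside 0.0076, or 0.31 without mouse 3 of both genotypes. Leaving out *Mtgr1*-/- mouse 2 gave 2 calls in crypts, *Slc15a1* (1.14) and *Slc6a20a* (1.76), beside 229 higher and 376 lower of all genes. Leaving out *Mtgr1*-/- mouse 3 gave 1, *Slc15a1* (0.68), beside 109 higher and 266 lower. All 10 genes had libraries that did not overlap between the genotypes at day 1 and at day 3, 8 above and 2 below WT each time, where 34.2% and 33.9% of all genes did so at day 1 and 34.6% and 34.2% at day 3. In crypts 4 of 10 lay above WT in all libraries, beside 12% of all genes.

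**Figure D1:**
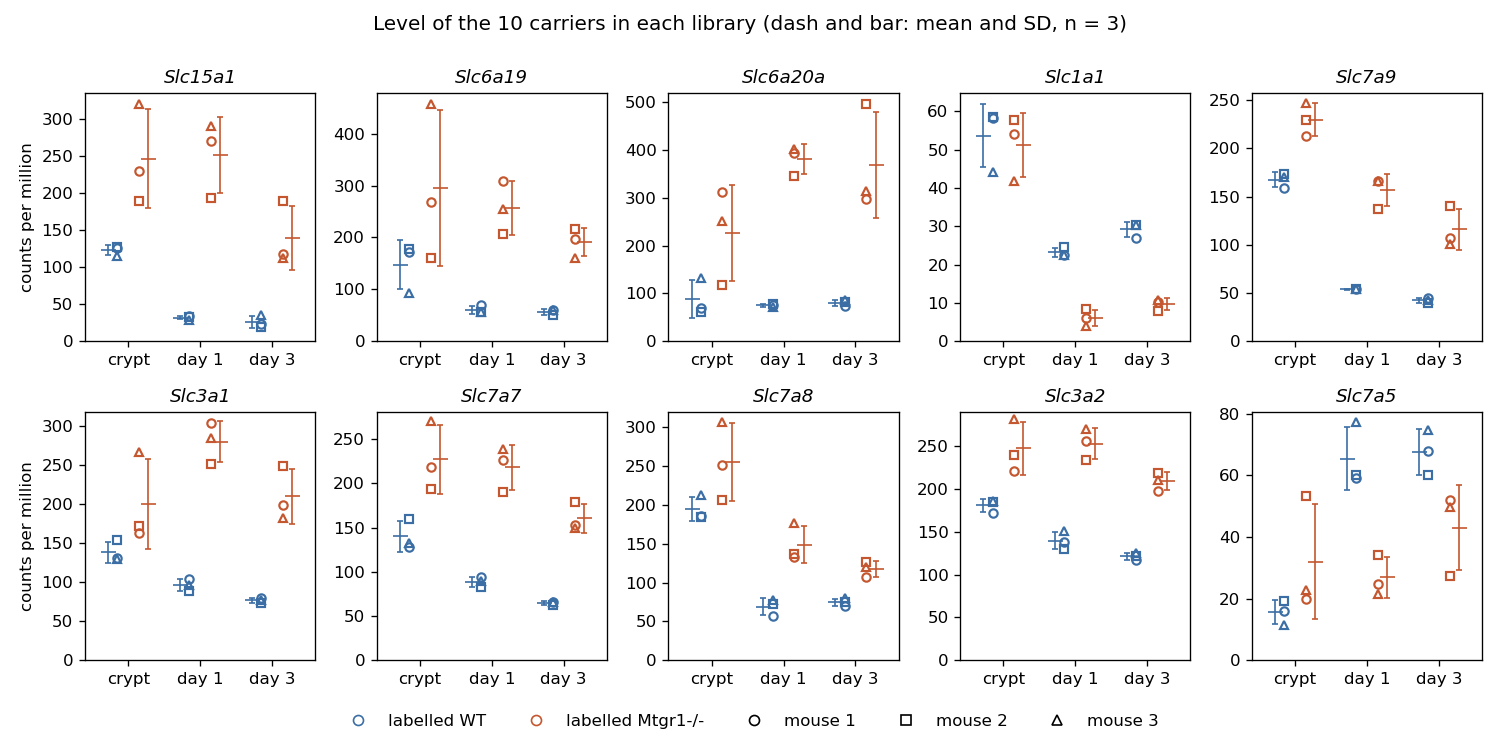
Level of each of the 10 carriers in CPM (vertical axis, linear, from 0) in every library, by time point, with libraries labelled WT in blue and those labelled Mtgr1-/- in red. Symbols mark the mouse, and the dash and bar give the mean and SD of 3 mice. At day 1, the red points lie above all blue ones in 8 panels and below them for Slc1a1 and Slc7a5.

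Because bulk RNA was measured, a difference in the share of cells that express a gene and a difference in RNA per cell cannot be told apart. Of 13 enterocyte markers (among them *Alpi*, *Apoa1*, *Fabp1* and *Anpep*), 12 were higher and 1, *Sis*, was lower at day 1 (median log2 fold change 2.26). At day 3, 12 were higher and none lower (limma, 1 lower at an unadjusted p below 0.05, 0 by edgeR and 0 by DESeq2), with a median of 1.99. Summed over the list, they stood at 11409.5 to 13985 CPM in WT libraries and at 19895 to 28092 in the others at day 1, and at 8074 to 9177 against 15303 to 24858 at day 3. In crypts the sums overlapped (21908 to 25870 against 16381 to 26086), and *Sis* alone passed the limma test, as lower, while DESeq2 called 3 of the 13 as higher and 2 as lower. *Sis* had the largest WT mean of the list there, at 207000 normalized counts against 10272, and so weighed on the sums. Of the 13, 8 had a log2 fold change above 0 in crypts, in a range from 1.56 for *Anpep* to -4.51 for *Sis*. The sums of 5 crypt base stem cell markers did not overlap in crypts, at 1125 to 1489 CPM in WT against 99.6 to 217. *Olfm4* made up most of the WT sum, at a mean normalized count of 29968 against 314, and alone was called, as lower (limma). *Lgr5* (256 against 387), *Axin2* (1501 against 1471), *Smoc2* (1984 against 1652) and *Ascl2* (145 against 121) overlapped between the genotypes there. On both days of culture all 5 were lower. Of 5 proliferation markers, 4 were lower at day 1 and 5 at day 3, and their sums were 1632 to 1737 CPM against 554 to 895 at day 1. None of these markers was at 0 in all libraries of a time point. In enteroids, the summed markers of stroma and muscle, endothelium, blood, exocrine pancreas and Brunner gland were each at most 2.97 CPM, with such defining markers as *Col1a2*, *Col3a1*, *Kdr* and *Hbb-bs* not listed at all, and those of immune cells at most 31.7 CPM. In crypts, immune markers summed to 31.1 to 355 CPM in WT and 14.8 to 41.1 CPM in the other libraries. The part of cell composition in the differences of the carriers was not tested.

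*Slc15a1* (ENSMUSG00000025557.10, chromosome 14 of GRCm38, 121459621 to 121505252, minus strand) encodes the brush border carrier that takes up dipeptides and tripeptides together with protons. At day 1 its normalized counts were 843, 753 and 697 in WT mice 1 to 3 and 8436, 5264 and 9055 in *Mtgr1*-/- mice 1 to 3. Every library labelled *Mtgr1*-/- was thus several times above the highest WT library. The log2 fold change was 3.27 ± 0.20 (SE, n = 3 against 3), or 9.67-fold (adjusted p = 5.00e-05, limma), and its rank among rises was 98 of 12587 tested genes. By day 3 it stood at 566, 474 and 858 in WT mice against 3065, 5587 and 3065, again with no overlap, which came to 2.61 ± 0.28 on the log2 scale (limma, adjusted p = 0.000178). In crypts the libraries were closer, at 3154, 3259 and 2993 against 5543, 4527 and 8657. All 3 crypt libraries labelled *Mtgr1*-/- were above WT, and the log2 fold change of 0.94 ± 0.22 did not pass the threshold (limma, adjusted p = 0.0681, between 0.000618 and 0.1996 in 20 alternatives).

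The bases before its RefSeq start (GRCm38.p6, chr14:121505255-121505504, minus strand, written 5′ to 3′) are shown because it had the largest difference of the 10. None of the following motifs, searched on both strands, was found in these letters, which says nothing of the factors themselves: a direct repeat of HNF4 type (CAAAGTCCA), a GATA motif (AGATAA), a CDX type motif (TTTATG), an ATF4 composite (TGATGNAA), a TATA box (TATAAA) and a GC box (GGGCGG).
Slc15a1: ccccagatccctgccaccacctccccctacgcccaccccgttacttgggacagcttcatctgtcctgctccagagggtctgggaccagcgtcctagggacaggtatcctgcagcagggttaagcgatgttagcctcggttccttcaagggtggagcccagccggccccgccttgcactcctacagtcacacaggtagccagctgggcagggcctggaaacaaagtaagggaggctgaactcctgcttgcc

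*Slc6a19* (ENSMUSG00000021565.16, chromosome 13, 73679745 to 73704865, minus strand) encodes the main sodium-dependent carrier of neutral amino acids in the brush border. Day 1 counts of 1748, 1304 and 1340.1 in WT stood against 9630.1, 5603 and 7942 in the others. They differed by 2.38 ± 0.20 on the log2 scale, or 5.19-fold (adjusted p = 0.000152, limma), without overlap. At day 3, values of 1428, 1205 and 1462 against 5136, 6352 and 4378 gave 1.94 ± 0.14 (adjusted p = 3.01e-05, limma). In crypts the groups overlapped, at 4324, 4513 and 2424 against 6471, 3815 and 12359. Mouse 3 of both genotypes stood apart there in opposite directions, and the difference of 0.90 ± 0.44 had an adjusted p of 0.341 in limma and lay between 0.115 and 0.812 in 20 alternatives. Without mouse 3 of both genotypes it was 0.17.

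*Slc6a20a* (ENSMUSG00000036814.13, chromosome 9, 123634770 to 123678885, minus strand) encodes a carrier of proline and other imino acids. At day 1 it was at 1890.4, 1798 and 1700.5 in WT and at 12276, 9358 and 12517 in the others. The 3 WT libraries lay close together and far below the rest, and the log2 fold change was 2.65 ± 0.12, or 6.29-fold (adjusted p = 1.81e-05, limma). At day 3 the counts were 1732, 1961 and 2087 against 7715, 14608 and 8536, with *Mtgr1*-/- mouse 2 highest (log2 fold change 2.36 ± 0.22, adjusted p = 9.13e-05, limma). In crypts, 1727, 1576 and 3436 overlapped with 7511, 2782 and 6807 (1.31 ± 0.44, limma, adjusted p = 0.174, between 0.00336 and 0.384 in 20 alternatives). A share of 23.5% of the 50-base windows of its transcript also occurs in *Slc6a20b*, so that reads could have been split between them. *Slc6a20b* moved the same way at day 1, from a mean of 44.0 to 441, and never reached the level of *Slc6a20a*.

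*Slc1a1* (ENSMUSG00000024935.11, chromosome 19, 28835049 to 28913960, plus strand), the brush border carrier of glutamate and aspartate, went the other way. Its day 1 counts were 561, 565 and 532 in WT against 187, 226 and 126 in the libraries labelled *Mtgr1*-/-. All 3 of the latter lay below WT, by a log2 fold change of -1.66 ± 0.21, or 3.16-fold (adjusted p = 0.000571, limma). At day 3, 639, 730.3 and 736 stood against 271, 235 and 294 (-1.40 ± 0.12, adjusted p = 6.61e-05, limma). The crypt libraries overlapped, at 1459, 1489.9 and 1142 against 1299.7, 1373 and 1131, and differed by less than their spread (-0.10 ± 0.13, adjusted p = 0.750, limma). It was therefore the member with the smallest difference in crypts and, with *Slc7a5*, 1 of 2 that were lower in culture.

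The sequence before its start (RefSeq, GRCm38.p6, chr19:28834885-28835048, plus strand, 5′ to 3′) is given as that of a member that fell, and stops where the GENCODE gene begins. Capitals mark a GC box on the opposite strand (CCGCCC), a motif found in 32.7% of the 32851 RefSeq promoters searched. Of the 9 members with a promoter in that set, 5 held one in at least 1 promoter. This counts genes and the share counts promoters, so the 2 are not alike: *Slc7a7* has 5 promoters in the set and *Slc7a9* has 2.
Slc1a1: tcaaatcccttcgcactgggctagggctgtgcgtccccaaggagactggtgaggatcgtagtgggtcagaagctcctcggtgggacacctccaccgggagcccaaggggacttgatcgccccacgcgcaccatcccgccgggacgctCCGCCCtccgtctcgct

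*Slc7a9* (ENSMUSG00000030492.16, chromosome 7, 35448796 to 35466036, plus strand) and *Slc3a1* (ENSMUSG00000024131.8, chromosome 17, 85028376 to 85064236, plus strand) encode the light and heavy chain of the brush border exchanger for cystine and dibasic amino acids, whose loss causes cystinuria. *Slc7a9* counts at day 1 were 1343, 1238 and 1289 in WT against 5189, 3731 and 5190.4. Those of *Slc3a1* were 2607, 2043 and 2268 against 9441, 6814 and 8848. For both chains, *Mtgr1*-/- mouse 2 was the lowest of its group and still well above WT. Their log2 fold changes were nearly equal, 1.85 ± 0.14 for *Slc7a9* (adjusted p = 9.52e-05, limma) and 1.85 ± 0.14 for *Slc3a1* (adjusted p = 0.000112, limma). Day 3 repeated this, with 1063, 944 and 1045 against 2806, 4141 and 2736 for *Slc7a9* and 1894, 1755 and 1859 against 5192, 7332 and 4931 for *Slc3a1*. There *Mtgr1*-/- mouse 2 was the highest of its group for both, and both had a log2 fold change of 1.64 (SE 0.16 and 0.14, adjusted p = 0.000103 and 6.91e-05, limma). In crypts *Slc7a9* was at 3987, 4413 and 4401 against 5109, 5461 and 6673, without overlap, and *Slc3a1* at 3288, 3916 and 3343 against 3902, 4102 and 7198, with overlap. Neither passed the threshold (0.42 ± 0.12, adjusted p = 0.109, and 0.47 ± 0.23, adjusted p = 0.346, limma), and without mouse 3 of both genotypes *Slc3a1* was at 0.16.

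The promoter of *Slc3a1* (RefSeq, GRCm38.p6, chr17:85028097-85028346, plus strand, 5′ to 3′) was the only 1 among the 9 members with a RefSeq promoter that held the HNF4 type repeat CAAAGTCCA, present in 0.384% of the 32851 promoters. It starts 39 bases before the RefSeq start. Capitals also mark TATAAA motifs (12.4% of promoters), of which 2 on opposite strands overlap close to the start and 1 farther out overlaps AGATAA (9.99%). These are matches of letters, not shown binding sites.
Slc3a1: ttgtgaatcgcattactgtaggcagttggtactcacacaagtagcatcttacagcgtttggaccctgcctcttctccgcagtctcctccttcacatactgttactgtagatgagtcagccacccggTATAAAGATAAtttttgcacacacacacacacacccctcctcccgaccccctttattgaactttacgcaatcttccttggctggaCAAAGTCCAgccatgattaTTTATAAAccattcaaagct

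*Slc7a7* (ENSMUSG00000000958.10, chromosome 14, 54369442 to 54417780, minus strand) encodes the basolateral light chain that exports dibasic amino acids, and is mutated in lysinuric protein intolerance. In day 1 enteroids it was at 2348, 1899 and 2119.5 in WT against 7032, 5146 and 7418 (log2 fold change 1.61 ± 0.15, 3.05-fold, adjusted p = 0.000209, limma). At day 3, 1558, 1497 and 1600.2 stood against 3978, 5279 and 4068 (2.84-fold, adjusted p = 3.62e-05, limma). The groups were apart on both days. In crypts they were apart as well, at 3211, 4063 and 3408 against 5252, 4604 and 7293, and the difference of 0.66 ± 0.18 had an adjusted p of 0.103 in limma, between 0.00950 and 0.299 in 20 alternatives.

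*Slc7a8* (ENSMUSG00000022180.7, chromosome 14, 54722209 to 54781946, minus strand), the basolateral light chain for neutral amino acids, was at 1406, 1675 and 1846 in WT and 4152, 3719 and 5483 in the other day 1 libraries. They differed by 1.43 ± 0.16 on the log2 scale (limma, adjusted p = 0.000388). The difference was smaller at day 3, at 0.85 ± 0.12 (adjusted p = 0.000563, limma), from 1658, 1788 and 1926 against 2779.6, 3715 and 3275, although the change between the days did not pass its test. Its crypt libraries overlapped, at 4661, 4696 and 5486 against 6048, 4900.5 and 8286 (0.34 ± 0.19, adjusted p = 0.400, limma), and without *Mtgr1*-/- mouse 3 the difference was 0.14.

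*Slc3a2* (ENSMUSG00000010095.13, chromosome 19, 8706882 to 8723369, minus strand) encodes the heavy chain that *Slc7a7*, *Slc7a8* and *Slc7a5* share. Its rise was the smallest of the 8 at day 1. There it was at 3452, 2986 and 3559 in WT against 7961, 6341 and 8396 (1.18 ± 0.13, 2.26-fold, adjusted p = 0.000332, limma). Day 3 libraries were at 2771, 2926 and 3034 against 5154, 6448 and 5712 (0.98 ± 0.10, adjusted p = 0.000118, limma). Both days showed no overlap. The crypt values of 4320.0, 4689 and 4784 against 5310.1, 5709 and 7603 were also apart, by 0.42 ± 0.14 (adjusted p = 0.183, limma), or 0.26 without *Mtgr1*-/- mouse 3. A share of 4.41% of its 50-base windows also occurs in transcripts of other genes, 338 of them.

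*Slc7a5* (ENSMUSG00000040010.10, chromosome 8, 121881150 to 121907694, minus strand) was the second member below WT in culture. Its day 1 counts of 1471, 1379 and 1824 in WT stood against 773, 927 and 672 in the others. The highest of the latter was below the lowest WT library, and the log2 fold change was -0.98 ± 0.15, or 1.97-fold (adjusted p = 0.00126, limma). By day 3 the groups were closer, at 1603, 1444 and 1809 against 1356, 804 and 1351, and *Mtgr1*-/- mouse 2 was lowest. They did not overlap, and the difference of -0.50 ± 0.20 missed the threshold (limma, adjusted p = 0.0592, between 0.0193 and 0.174 in 18 alternatives, of which 7 placed it below 0.05). In crypts the direction of the means was opposite, with 401, 493 and 298 against 479, 1269.8 and 615. There the groups overlapped and *Mtgr1*-/- mouse 2 stood highest (0.89 ± 0.37, adjusted p = 0.262, limma).

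**Figure D2:**
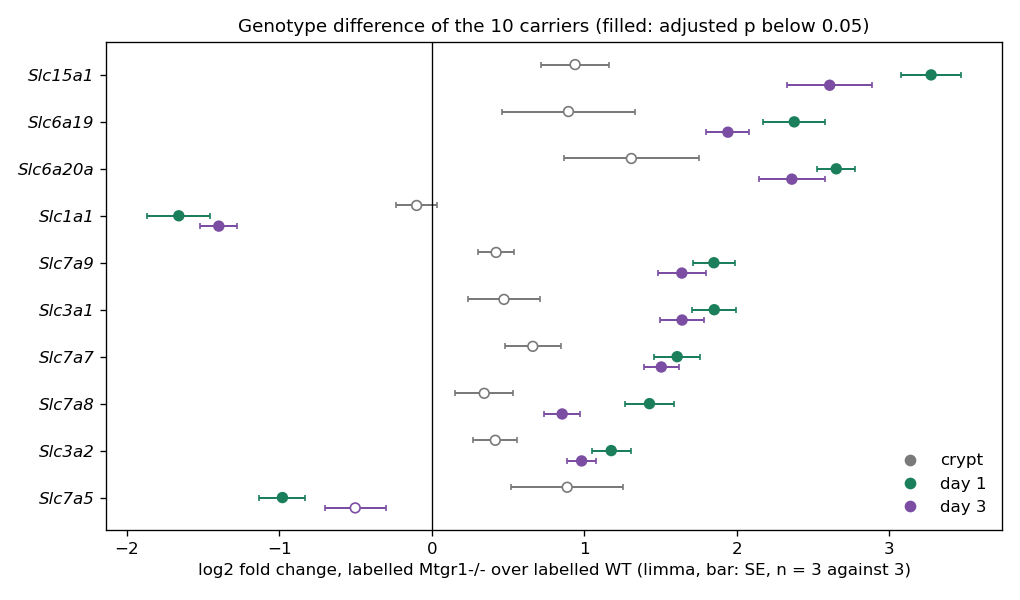
Log2 fold change (horizontal axis) of each carrier in the libraries labelled Mtgr1-/- over WT, with its SE (bars, limma, 3 libraries against 3), for crypts (grey), day 1 (green) and day 3 (purple). Filled points passed an adjusted p of 0.05. At day 1 they run from 3.27 for Slc15a1 to -1.66 for Slc1a1, and all crypt points are open.

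The scaling of the libraries bears on these sizes but not on the directions at day 1. When the values were rescaled to CPM, the median of all genes moved to -0.33 at day 1 and -0.20 at day 3, and the split of called genes from 3776 higher and 3637 lower to 2206 and 5588 at day 1, and from 3826 and 3719 to 2755 and 5081 at day 3. The carriers remained 8 higher and 2 lower at day 1. *Slc3a2*, the smallest rise, was then at 0.86, beside the median of -0.33. At day 3 the CPM gave 8 higher and 2 lower, with *Slc7a5* at -0.70 (adjusted p = 0.0295, limma).

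Whether partner chains kept their proportions was read from the log2 ratio of light to heavy chain in each library, over 12 comparisons. With 3 against 3 libraries, the smallest p that the exact permutation test (two-sided) allows is 0.1, or 0.24 after adjustment over the 12. *Slc7a9* and *Slc3a1* kept 1 ratio in enteroids of both genotypes, -0.83 ± 0.12 in WT and -0.83 ± 0.056 in the others at day 1 (SD, n = 3, exact permutation p = 1) and -0.85 ± 0.036 against -0.85 ± 0.032 at day 3 (exact permutation p = 1). In crypts the ratio was higher in both, at 0.28 ± 0.11 and 0.23 ± 0.29 (exact permutation p = 0.9), and *Mtgr1*-/- mouse 3 alone lay below 0, at -0.11.

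For the light chains that share *Slc3a2*, the ratios moved apart. *Slc7a5* to *Slc3a2* was -1.10 ± 0.13 in WT and -3.26 ± 0.44 in the others at day 1, a difference of -2.16, and -0.85 ± 0.15 against -2.34 ± 0.58 at day 3, a difference of -1.48 (SD, n = 3, exact permutation p = 0.1 for both). All libraries labelled *Mtgr1*-/- lay below WT on both days. *Slc7a7* to *Slc3a2* was higher in them, by 0.43 at day 1 and 0.52 at day 3, again without overlap (exact permutation p = 0.1 for both). *Slc7a8* to *Slc3a2* overlapped at day 1 (difference 0.25, exact permutation p = 0.2) and was slightly lower without overlap at day 3 (-0.13, exact permutation p = 0.1). In crypts all 4 ratios overlapped between the genotypes. Ratios between genes also hold their transcript lengths, so only their differences between groups are read here.

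**Figure D3:**
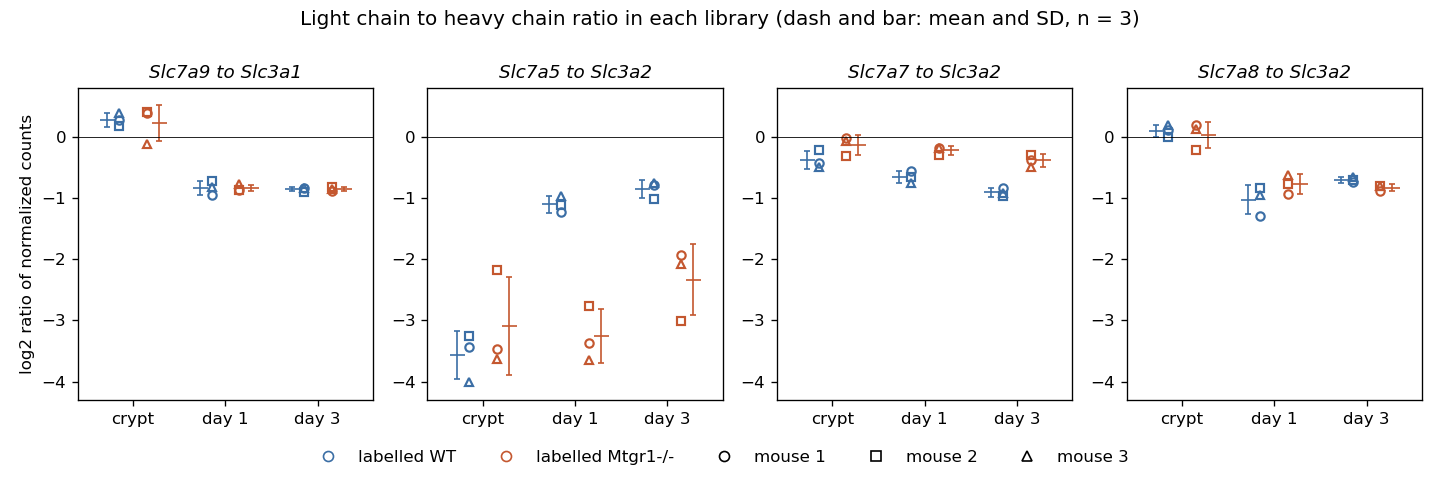
Log2 ratio of normalized counts (vertical axis, 1 scale for all panels) of 4 light chains to their heavy chain in every library, with WT in blue and Mtgr1-/- in red, symbols for the mouse, and mean and SD beside the points. Slc7a9 to Slc3a1 coincides between the genotypes at day 1 and day 3, and Slc7a5 to Slc3a2 differs by -2.16 and -1.48.

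The change of the genotype difference between time points was tested over all 18 libraries with limma, with the mouse as a random effect. Each genotype difference was taken within 1 table, since the tables were normalized separately. From crypts to day 1, it rose for 8 and fell for 2 of the 10 carriers (background 41.4%, with 20.3% higher and 21.1% lower). The shift was 2.33 ± 0.39 for *Slc15a1* (adjusted p = 0.00116, limma), 1.43 ± 0.22 for *Slc7a9* (adjusted p = 0.000717, limma), -1.56 ± 0.24 for *Slc1a1* (adjusted p = 0.000785, limma) and -1.87 ± 0.42 for *Slc7a5* (adjusted p = 0.00378, limma). Without WT mouse 2 the count of rises was 5, with *Slc6a19*, *Slc6a20a* and *Slc7a7* past the threshold no longer. Over all 12145 genes the rises went from 2468 to 1605 there. From crypts to day 3, 5 rose and 2 fell (background 31.6%, with 16.5% higher and 15.1% lower). *Slc6a19*, *Slc6a20a* and *Slc7a8* were those that did not pass, with shifts of 1.05, 1.05 and 0.51. That count changed with single mice. It was 3 rises without WT mouse 1 or WT mouse 3, 1 without WT mouse 2, and 7 without *Mtgr1*-/- mouse 3. Only 1 fall was left without WT mouse 1, WT mouse 3 or *Mtgr1*-/- mouse 2. Calls over all genes dropped as well, from 2000 higher and 1834 lower to 1029 and 671 without WT mouse 1. They were 1030 and 627 without WT mouse 2, and 1402 and 619 without WT mouse 3.

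Between day 1 and day 3, 0 of 10 carriers passed (limma, background 0.0329%, with 0.0247% higher and 0.00823% lower), and 1, *Slc7a8*, had an unadjusted p below 0.05 (shift -0.57 ± 0.25, adjusted p = 0.648). No other tool was run on this contrast. Without *Mtgr1*-/- mouse 2, 3 were called as lower at day 3, *Slc15a1* (-1.20), *Slc7a8* (-0.79) and *Slc7a9* (-0.56). Calls over all 12145 genes rose as well, from 3 higher and 1 lower to 454 higher and 425 lower. *Mtgr1*-/- mouse 2 was the lowest of its group at day 1 and the highest at day 3 for all 8 members above WT.

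Read along the culture of each mouse in CPM, which puts the 3 tables on 1 scale but carries no test here, WT enteroids held less of most carriers than the crypts they came from. *Slc15a1* was lower at day 1 than in the crypts in all 3 WT mice, by a mean of 3.84-fold, *Slc7a9* by 3.09-fold, *Slc7a8* by 2.83-fold, *Slc6a19* by 2.33-fold and *Slc1a1* by 2.29-fold. *Slc7a5* was instead higher in all 3 WT mice, at 16.0, 19.4 and 11.6 CPM in crypts and 59.0, 60.1 and 77.1 CPM at day 1. In the *Mtgr1*-/- cultures *Slc7a8* and *Slc7a9* were also below the crypt level in all 3 mice, by a mean of 1.70-fold and 1.47-fold. For 4 other carriers the mean change from crypts to day 1 was 0.040 on the log2 scale for *Slc15a1* (range -0.14 to 0.23 over 3 mice), -0.093 for *Slc6a19* (range -0.84 to 0.36), 0.037 for *Slc3a2* and -0.13 for *Slc7a5*, with mice on both sides of 0 in each. *Slc3a1* and *Slc6a20a* were above the crypt level in all 3 *Mtgr1*-/- mice, by 0.51 and 0.86. *Slc1a1* was lower than in crypts in all 3, by a mean of 8.52-fold, from 54.1, 57.7 and 41.8 to 5.99, 8.32 and 4.04 CPM.

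Together the 10 transcripts took 1218 to 1301 CPM in WT crypts, 682 to 727 CPM in WT day 1 enteroids and 613 to 678 CPM at day 3. The libraries labelled *Mtgr1*-/- stood at 1620 to 2465, 1736 to 2108 and 1411 to 1848 CPM. At each time point the lowest of them exceeded the highest WT library.

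The order of the members by level was read per length, as CPM per kilobase of transcript. In WT crypts *Slc7a9* led at 86.4 ± 3.9 (SD, n = 3) and *Slc7a5* was last at 4.45 ± 1.11. *Slc3a2*, *Slc7a7* and *Slc3a1* followed the first at 64.2, 61.4 and 60.9, with ranges that overlapped each other. In WT day 1 enteroids *Slc3a2* led at 49.7 ± 3.6, *Slc7a5* stood sixth at 18.6 ± 2.9 and *Slc1a1* was last at 6.11 ± 0.32. In day 1 enteroids labelled *Mtgr1*-/-, *Slc6a20a* led at 139 ± 11, overlapping with *Slc3a1* at 123 ± 12, and *Slc7a5* and *Slc1a1* came last at 7.63 ± 1.86 and 1.61 ± 0.56, each apart from its neighbour. The same genes held the first and the last places at day 3, at 135 ± 40 for *Slc6a20a* and 2.56 ± 0.41 for *Slc1a1*.

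Other carriers of amino acids and peptides were called in both directions. Of 37 listed by name, 26 were tested at day 1, and 11 were higher and 10 lower (median log2 fold change 0.14). At day 3, 9 were higher and 10 lower of 26 (median 0.00077). Over all genes the calls also split about evenly, with 30% above and 28.9% below WT at day 1 and 29.9% above and 29.1% below WT at day 3. Among those with a mean of at least 50, the largest changes at day 1 were those of *Slc1a3*, a carrier of glutamate and aspartate like *Slc1a1* (mean 414 in WT against 25.4, log2 fold change -4.05, adjusted p = 0.000107, limma), of *Slc6a20b* (3.38, adjusted p = 0.000176, limma), of *Slc7a15* (2.96, adjusted p = 0.000595, limma) and of *Slc7a2*, a carrier of cationic amino acids (-2.77, adjusted p = 0.000257, limma). At day 3 these genes had log2 fold changes of -3.50 for *Slc1a3*, 2.75 for *Slc6a20b*, 1.59 for *Slc7a15* and -3.13 for *Slc7a2*.

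In crypts 1 of 28 tested carriers was higher and 1 lower, where 1.58% and 3.15% of all genes were. *Slc1a3* was lower, at 443, 471 and 588 in WT against 103, 166 and 80.3 (log2 fold change -2.15 ± 0.28, adjusted p = 0.00852, limma). *Slc6a14*, a carrier of neutral and cationic amino acids, was higher, at 0, 0.99 and 0 in WT against 14.1, 97.0 and 28.5 (adjusted p = 0.0277, limma). It was named for being the single rise, after its values were seen. *Slc1a1* and *Slc1a3*, both carriers of acidic amino acids, were thus below WT in culture, and *Slc1a3* in crypts too.

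A further 4 carriers were picked after their values were seen, for their place in absorption or in growing cells. They do not stand for the list, in which 11 of 26 were higher and 10 lower at day 1. In the same list, *Slc36a1* differed by only 0.30 (adjusted p = 0.0450, limma) and *Slc38a2* by -0.041 (adjusted p = 0.735, limma) at day 1. *Slc16a10*, which moves aromatic amino acids, was at a mean of 1821 in WT and 8593 in the others at day 1 (log2 fold change 2.21, adjusted p = 0.000125, limma), and *Slc43a2*, a carrier of large neutral amino acids, at 1099.9 and 3374 (1.58, adjusted p = 0.000562, limma). *Slc1a5*, a glutamine carrier, was at 2558 and 1224 (-1.07, adjusted p = 0.000552, limma), and *Slc7a1*, for cationic amino acids, at 4821 and 2869.9 (-0.75, adjusted p = 0.000599, limma).

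Accessory genes of the brush border carriers were measured as a list of 8, which also held 3 transcription factors of the epithelium. At day 1, 6 were higher and 0 lower of 8 (limma, 7 and 0 at an unadjusted p below 0.05, 5 and 0 by edgeR, 7 and 0 by DESeq2), with a median of 1.10, where 30% of all genes were higher. *Pdzk1* and *Slc9a3r1*, which anchor carriers in the brush border, had log2 fold changes of 1.75 and 1.65, and the sodium and proton exchanger *Slc9a3* 1.44. *Cdx2*, an intestinal transcription factor, changed less, by 0.39, and *Hnf4a* was at 0.23 (adjusted p = 0.0717, limma). At day 3, 3 were higher and 0 lower (limma, 3 and 0 at an unadjusted p below 0.05, 3 and 0 by edgeR, 4 and 0 by DESeq2), among them *Slc9a3r1* and *Slc9a3* (1.03). This count of 3 of 8 was not far from the share of all genes, of which 29.9% were higher. In crypts 0 of 7 tested passed (limma, 1 lower at an unadjusted p below 0.05, 0 by edgeR and 0 by DESeq2), where 4.73% of all genes did.

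Of 20 genes of the amino acid response, which holds the sensor kinase *Eif2ak4*, the factor *Atf4* and genes induced under amino acid shortage, 3 were higher and 9 lower at day 1 (median log2 fold change -0.40), and 4 were higher and 7 lower at day 3 (median -0.25). The share called was close to that of all genes, 58.9% at day 1 (30% higher and 28.9% lower) and 59% at day 3 (29.9% higher and 29.1% lower). The lower ones included *Phgdh* and *Shmt2*, enzymes of serine and glycine synthesis, at day 1 (-1.31 and -1.16, adjusted p = 0.000382 and 0.000972, limma), and *Nupr1* (-2.86, adjusted p = 0.00151, limma). *Ddit3*, which is linked to cell death under stress, was higher, at a mean of 165 in WT and 369 in the others (1.12, adjusted p = 0.00235, limma). At day 3 the largest changes were those of *Stc2* (-2.39), *Nupr1* (-1.23), *Ddit3* (0.94) and *Shmt2* (-0.80). *Atf4* itself was at a mean of 7301 and 8088 at day 1 (0.14 ± 0.097, adjusted p = 0.236, limma). In crypts 1 of 19 tested was called, *Vldlr*, as lower (log2 fold change -3.35, adjusted p = 0.0107, limma). The members of the list moved in both directions, so its name describes no change shared by all of them. The 9 lower at day 1 included *Asns*, *Psat1*, *Phgdh*, *Psph*, *Shmt2* and *Mthfd2*, at -0.65 to -1.31. The 3 higher were *Ddit3*, *Trib3* and *Sesn2*.

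**Figure D4:**
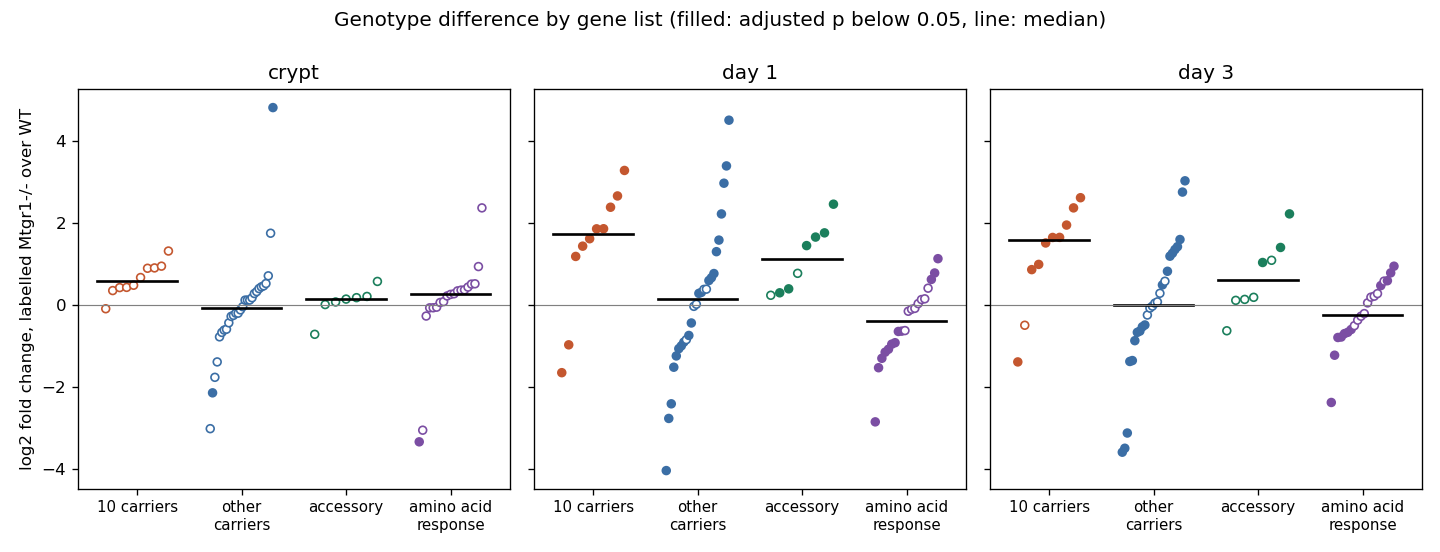
Log2 fold change (vertical axis) in the libraries labelled Mtgr1-/- over WT of each tested gene, as 1 point, in the 10 carriers, the other carriers, the accessory genes and the amino acid response genes, for crypts, day 1 and day 3. Filled points passed an adjusted p of 0.05 and lines mark medians, at 1.73 for the 10 carriers and 0.14 for the other carriers at day 1.

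Across the 18 libraries, the genes most like 4 of the members were looked for among 10579 others, by Pearson's r of log2(CPM + 1), as a description. The libraries share genotype and time, which alone can give high values. For *Slc15a1* they were *Crip1*, *Dgat1* and *Clcn2* (r = 0.987, 0.984 and 0.984). For *Slc6a19* they were *Slc27a4*, *Acsl5* and *Gpat3* (r = 0.975, 0.972 and 0.957). For *Slc3a2* they were *Enpep*, *Agpat2* and *Clcn2* (r = 0.989, 0.983 and 0.980), and for *Slc7a5* they were *Mpzl2*, *Naa25* and *Wdr55* (r = 0.975, 0.971 and 0.970). Among the members themselves, r was highest between *Slc7a7* and *Slc3a2* (0.983), and was -0.72 between *Slc15a1* and *Slc7a5*. *Slc1a1* was like neither set, with r between -0.68 and 0.25 to the others.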

How the data were processed

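RNA from duodenal crypts and enteroids of mice aged 8 to 12 weeks was sequenced as stranded mRNA libraries. Per the submitters' processing notes, the authors used fastp 0.20.0, Salmon 1.3.0 and DESeq2 1.26.0. The deposited tables, 1 for each time point, hold normalized counts, a signal in which the authors divided gene counts by 1 size factor per library. Their own columns of means, log2 fold changes, Wald scores, p-values and adjusted p-values were deposited too and were not used. All values were whole multiples of 1 step per library (tolerance 0.01), so reads could be recovered. In 2 libraries that step is close to 1.

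Genotype was compared within each table with limma 3.58.1 (R 4.3.3, trend) on log2(normalized count + 1), for genes with a mean of at least 10, with Benjamini-Hochberg adjustment over all tested genes and two-sided tests. Fold changes on this scale understate those of low genes. Time points were compared through the genotype difference over 18 libraries. edgeR 4.0.16 and DESeq2 1.42.0 on the recovered reads were alternatives, with other pseudocounts, filters, scalings, weights, a replicate block, and each library left out. Leaving out mouse 3 of both genotypes in crypts, and the mitochondrial share as a covariate, were added after seeing the data. Chain ratios used the exact permutation test (scipy 1.17.1). Genes were located in GENCODE for GRCm38, and promoters came from RefSeq (GRCm38.p6), where 9 of 10 members matched. All 10 carriers were named at every time point, and up to 4 genes of each other list by the size of their change. Further genes of those lists were named outside that rule, among them *Cdx2*, *Hnf4a*, *Atf4* and *Asns*. Some genes of these lists are counted but not reported by name here. The members and lists were chosen with earlier results of these data known.

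Mouse numbers come from the labels, and the WT and *Mtgr1*-/- mice of 1 number are different animals. The deviations of same-numbered libraries from their group means correlated at 0.12, 0.23 and 0.22 at day 1, and at 0.076, 0.27 and 0.35 in crypts. At day 3 the correlations were -0.0067, -0.0023 and -0.016. The genotype tests within a time point did not pair the libraries, and the mouse number as a replicate block was an alternative. Over the 18 libraries, 22035316 to 29661084 reads lay on listed genes.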

Additional observations from a re-analysis of the deposited data

Results flagged for a closer look

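The genotype difference of 17 carrier and time point pairs changed between time points by the interaction test (limma, adjusted p below 0.05), which is why they are listed here. From crypts to day 1 the shift on the log2 scale was 2.33 for *Slc15a1*, 1.48 for *Slc6a19*, 1.34 for *Slc6a20a*, 0.95 for *Slc7a7*, 1.08 for *Slc7a8*, 1.43 for *Slc7a9*, 1.38 for *Slc3a1* and 0.76 for *Slc3a2*. It was -1.87 for *Slc7a5* and -1.56 for *Slc1a1*. From crypts to day 3 it was 1.67 for *Slc15a1*, 0.84 for *Slc7a7*, 1.22 for *Slc7a9*, 1.17 for *Slc3a1* and 0.57 for *Slc3a2*, and -1.39 for *Slc7a5* and -1.30 for *Slc1a1*. The enterocyte, stem cell and proliferation markers also differed between the genotypes in enteroids, and their part in these shifts was not tested.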

How the results depend on the processing

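At day 1 the 8 higher and 2 lower carriers were counted the same under every alternative run. In crypts the count of higher carriers went from 0 to 2 with CPM scaling, 6 with array weights and 4 with DESeq2, and ranged from 0 to 2 when 1 library was left out. Over all 12980 genes tested, the higher calls went from 205 to 209, 982 and 586 in the same order. They ranged from 54 to 229 with 1 library left out. At day 3 the count of lower carriers went from 1 to 2 with CPM scaling, quantile normalization, array weights and DESeq2, and ranged from 1 to 2 with 1 library left out. Over all 12782 genes, the lower calls were 3719 in the main fit and 5081, 4065, 4593 and 3719 in these 4 alternatives. They ranged from 2885 to 3782 with 1 library left out. For the change from crypts to day 1, leaving out 1 mouse gave 5 to 8 rises, beside 1605 to 2784 over all 12145 genes tested. From crypts to day 3 it gave 1 to 7 rises and 1 to 2 falls, beside 1029 to 1885 and 619 to 1827. From day 1 to day 3 it gave 0 to 3 falls, beside 0 to 425. The shift of *Slc7a7* from day 1 to day 3 turned from -0.10 to 0.016 with CPM scaling, and ranged from -0.40 to 0.054 with 1 mouse left out, above 0 without *Mtgr1*-/- mouse 1 (0.032) or mouse 3, and that of *Slc1a1* from 0.26 to -0.046 without *Mtgr1*-/- mouse 3, in a range of -0.046 to 0.54. The cause was not tested.

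With the mouse number as a replicate block, 2 carriers were lower at day 3, *Slc7a5* being added (adjusted p = 0.0193, limma), and the counts of members called did not change in crypts, at day 1 or for the changes between time points. Over all 12782 genes, 3569 were lower at day 3 with the block and 3719 without it. Same-numbered libraries did not deviate together at day 3 (correlations of -0.0067, -0.0023 and -0.016), and in crypts the correlations were 0.076, 0.27 and 0.35.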
